A study of Mus musculus with 21 samples.

Results

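Pseudogene transcripts were taken from a full-length transcript catalogue of mouse gametes and preimplantation embryos. A catalogue transcript counted as a member if it overlapped, on the same strand, an exon of a gene that GENCODE release vM21 types as any kind of pseudogene, and no exon of a protein-coding gene on that strand. Of 22612 transcripts in the catalogue, 494 met the rule (2.18%), and they belonged to 434 annotated pseudogenes. A further 36 transcripts touched both a pseudogene exon and a coding exon and were left out. The study followed 7 stages with 2 short-read libraries each and 1 long-read pool each, and the pool mixed the cDNA of 2 batches. Sperm came from the epididymis of DBA/2J males according to the sample labels, whereas the protocol text names DBA/2N. Oocytes in metaphase II came from superovulated C57/BL6J females of 3-5 weeks, collected 20 h after hCG. The 1-cell (24-26 h after hCG), 2-cell (46-48 h), 4-cell (54-58 h), 8-cell (68-70 h) and blastocyst (94-96 h) samples were embryos of a ♂DBA/2J x ♀C57/BL6J cross, cultured in KSOM medium and pooled. No agent other than the gonadotropins was given, and all females received those. The labels do not say which libraries came from separate animals, and the study describes 2 collected batches for each stage. The p-values therefore measure the spread between the libraries of a stage, pooled over all stages of a fit.

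A processed pseudogene is a copy of an mRNA that a retrotransposon's reverse transcriptase wrote back into the genome, usually without introns and without its own promoter. An unprocessed pseudogene arose by duplication of a gene and keeps exons and introns, whereas a unitary pseudogene is a gene that lost its function with no intact copy left. Genes that are highly transcribed in the germ line, those of ribosomal proteins above all, have the most processed copies in mammals, and the first large wave of embryonic transcription in the mouse falls at the 2-cell stage.

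Short stretches of 2 members and their relatives are shown first as examples of how a copy differs from its relative. The first is the most abundant member, Oaz1-ps, beside Oaz1, the gene of ornithine decarboxylase antizyme, whose mRNA is known for a programmed ribosomal frameshift. The capital marks the base that the coding exons of Oaz1 in the annotation leave out at this place, so the difference is not one that marks the copy as disabled. All positions are in build mm10.
Oaz1-ps, chr17:17345907-17345965, minus strand: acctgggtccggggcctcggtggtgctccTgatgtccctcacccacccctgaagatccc
Oaz1, chr10:80828266-80828324, plus strand: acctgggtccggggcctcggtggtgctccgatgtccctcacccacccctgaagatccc
The second is Gm4204, a copy of the nucleosome assembly gene Nap1l1 that was called lower in 2-cell embryos. The capitals mark codon 9 of the 392 codons of Nap1l1, which is a stop codon in the pseudogene. This stop lies before the first base of the catalogue transcript of Gm4204 (chr1:135232168), so it belongs to the annotated pseudogene and not to the transcript whose level was measured. The window of Nap1l1 joins 2 exons.
Gm4204, chr1:135232136-135232190, plus strand: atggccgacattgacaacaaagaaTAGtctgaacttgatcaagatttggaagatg
Nap1l1, chr10:111481300-111485536, plus strand: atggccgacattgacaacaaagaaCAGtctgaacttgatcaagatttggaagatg

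The libraries differed in ways that touch the members. Levels are in TPM, which scales the reads of a transcript for its length and then for the total of its library. The unit keeps no record of depth, and the read totals that the study lists for its libraries were not used here. Between the 2 libraries of a stage, the median standard deviation of log2(TPM + 1) over members was 0.30 at the 4-cell and 0.33 at the 8-cell stage, 0.54 at the 1-cell stage, and 0.88 to 1.18 in oocyte, blastocyst, sperm and 2-cell embryos. Over all transcripts, the range was 0.24 to 1.08. The 2 libraries of the 2-cell stage stood apart from each other: 8 oocyte markers summed to 116 TPM in replicate 1 and 1327 TPM in replicate 2, and 7 2-cell markers with a transcript (Zscan4c and Zfp352 among them) to 28.2 and 456 TPM. Replicate 1 thus lay below both 4-cell libraries for the 2-cell markers (40.3 and 48.5 TPM) and for the oocyte markers (155 and 161 TPM), and its 2-cell markers did not set it apart from later stages. Sperm, oocyte and blastocyst markers were highest in the libraries labelled so, at 17418 to 21198, 5207 to 16744 and 11284 to 35882 TPM in sum. The sample titles number the 8-cell replicates the other way round from the deposited files, and the titles were followed.

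Most members came from processed pseudogenes and resembled a coding gene. By annotation, 310 lay in processed, 73 in unprocessed, 59 in transcribed processed, 40 in transcribed unprocessed, 6 in polymorphic and 4 in unitary pseudogenes, with 2 in other types. A single exon made up 295 of them and several exons 199, with a median length of 869.5 bases, and 479 lay in no other annotated gene. A member had a median of 67.7% of its bases in pseudogene exons (quartiles 44.2% and 87.4%). For 11 members that share was under 10%, and the smallest overlap was 8 bases, so these may be other transcripts that only touch a pseudogene.

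For each member, the annotated sequence of its pseudogene was searched among all protein-coding transcripts, and the best match over at least 50% of its length was called its relative. A relative was found for 460 members, in 296 different genes, with a median identity of 98.0%. For 60 members the identity was 100% over the aligned part, for 188 it was 99% or more, and for 90 it was under 90%. Cytosolic ribosomal proteins were the relatives of 114 members, the ubiquitin pathway of 11, heat shock proteins and chaperonins of 9, and zinc finger genes, translation factors and subunits of respiratory complexes of 7 each. Histones and HMG proteins had 6, tubulins and actins 4 and the Obox homeobox genes 4, while 291 members had relatives outside these lists and 34 had none. Gapdh and Rps2 had 8 copies each, and Pabpc4 had 8 transcripts from 7 pseudogenes. In 184 members the alignment of the pseudogene to the relative's coding sequence had a deletion, insertion or stop that shifts or ends the reading frame (77, 55 and 52 by the first such difference), at a median of 37.0% along its codons. The 55 insertions include the base of Oaz1-ps shown above, which does not mark a disabled copy, and whether others fall at such places was not tested.

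Identity this high decides how far a short read can tell a copy from its source. The reads were 150 bases long. The annotated pseudogenes of 254 members shared an identical run of at least 150 bases with their relative. A further 44 did so only with the pseudogene of another member, and 196 with neither. The run was measured on the annotated pseudogene and not on the catalogue transcript, which has a median of 67.7% of its bases there. Only the best coding match and the pseudogenes of other members were compared, so the 196 may still share reads with other sequences. For the 254 members a read within such a run could come from the coding gene. Levels of these are given as the authors' quantification assigned them, and the 196 members without such a run are given beside the counts of calls. The run was found in 189 of 310 processed members (median identity 98.97%) and in 28 of 73 unprocessed ones (95.7%).

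**Figure D1:**
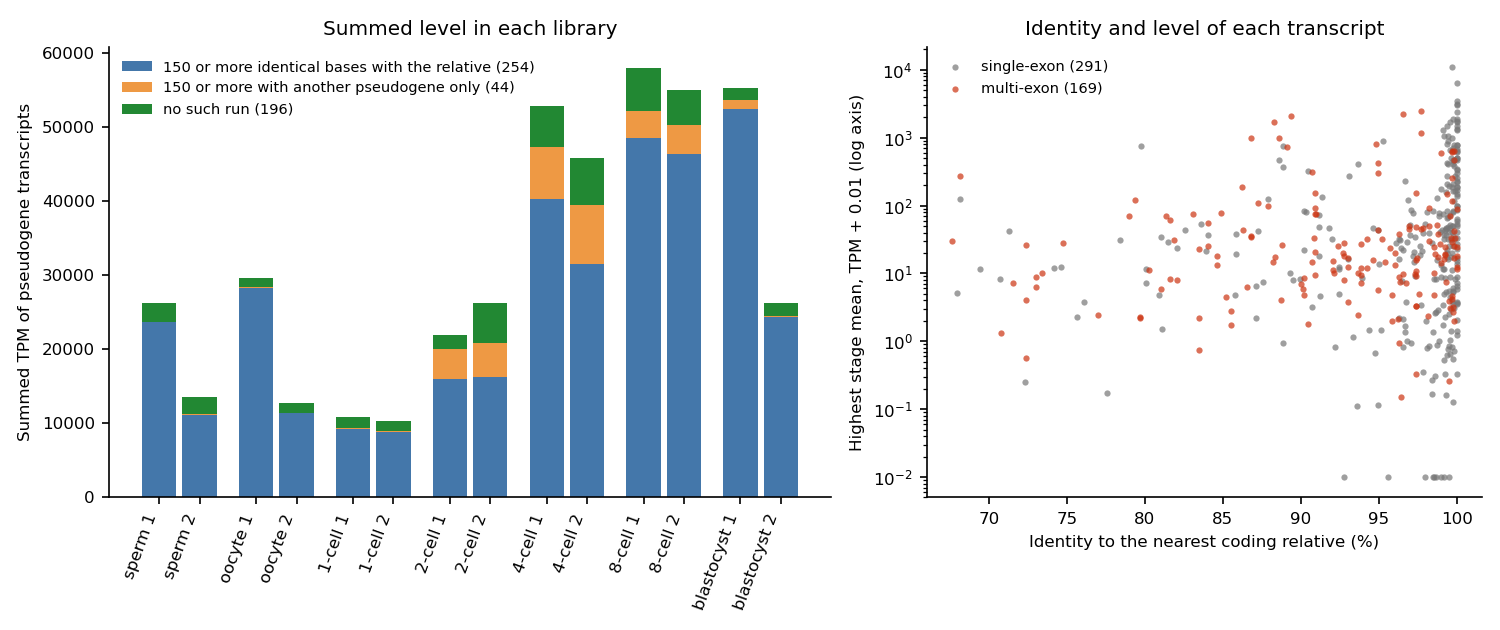
Left: summed TPM of all members in each of the 14 short-read libraries, stacked by whether the annotated pseudogene of a member shares an identical run of at least 150 bases with its coding relative (254), with another member only (44) or with neither (196). Right: identity to the relative in percent against the highest stage mean of the member in TPM + 0.01 on a log axis, for 291 single-exon and 169 multi-exon members. The members sharing a run with the relative made up most of the sum in every library, and the sums rose from the 1-cell to the 8-cell stage.

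Members together held 1.06% of all TPM in 1-cell embryos and 5.65% in 8-cell embryos. Their summed level in the 2 libraries was 10861 and 10371 TPM in 1-cell, 21989 and 26321 TPM in 2-cell, 52912 and 45882 TPM in 4-cell and 57973 and 55022 TPM in 8-cell embryos. These 4 stages did not overlap each other. Blastocysts gave 55306 and 26332 TPM, oocytes 29674 and 12737 TPM, and sperm 26279.9 and 13617 TPM, so the 2 libraries of each of these 3 stages differed more than those of any of the other 4. The 196 members without a shared run summed to 1447 and 1435 TPM at the 1-cell, 1973 and 5463 TPM at the 2-cell, 5566 and 6297 TPM at the 4-cell, 5686 and 4749 TPM at the 8-cell and 1586 and 1811 TPM at the blastocyst stage. Members related to ribosomal protein genes went from 1424 and 385 TPM at the 1-cell to 29263 and 26365 TPM at the 8-cell stage. At least 1 TPM in both libraries was reached by 218 members in sperm, 122 in oocytes, 165, 272, 307 and 277 in 1-, 2-, 4- and 8-cell embryos, and 188 in blastocysts. In no library did 9 members have any level, and 465 reached 1 TPM in at least 1 library. Each of the 485 members with any level was placed in the stage where its mean was highest: 104 peaked in 2-cell embryos (21.4%, against 17.6% of all 22526 such transcripts), 84 in 8-cell embryos (17.3% against 8.36%) and 97 in sperm (20.0% against 23.6%). Of the members without a shared run, 24.2% peaked in 2-cell embryos, 8.76% in 8-cell embryos, near the share of all transcripts, and 28.9% in sperm, above that share.

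Oaz1-ps, a single-exon copy at 99.7% identity to Oaz1 (chr17:17345283-17346001, minus strand), had the highest level of any member. It measured 19275 and 2342 TPM in oocytes, 2376 and 3387 TPM in 1-cell and 4731 and 791 TPM in 2-cell embryos, 781 and 515 TPM in 4-cell and 547 and 1164 TPM in 8-cell embryos, 303 and 1735 TPM in blastocysts and 3228 and 717 TPM in sperm. Its 2 libraries differed several-fold in 4 stages, and no comparison called it. Gm28437 (chr1:24613186-24616177, minus strand) is a nuclear copy of mitochondrial DNA, 100% identical to mt-Co3, a subunit of cytochrome oxidase. It measured 10399 and 2297 TPM in sperm, 105 and 192 TPM in 1-cell, 494 and 5019 TPM in 2-cell and 3282 and 3345 TPM in 4-cell embryos. Mitochondrial transcripts would carry the same bases as this copy.

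Several copies of small housekeeping genes were abundant later. Gm10123, an intronless copy of the cyclophilin gene Ppia at 100% identity (chr9:96895614-96896354, plus strand), measured 53.5 and 35.4 TPM at the 1-cell, 475 and 233 TPM at the 2-cell, 2490 and 2010 TPM at the 4-cell and 3347 and 3102 TPM at the 8-cell stage. Gm12481, identical to Serf2 (chr4:43664024-43664411, plus strand), stayed between 1019 and 3671 TPM in all 12 libraries from oocyte to blastocyst. Rpl15-ps3, identical to the ribosomal protein gene Rpl15, rose from 35.1 and 9.31 TPM at the 1-cell stage to 2976 and 3104 TPM at the 8-cell stage. Gm15459, a 99.7% copy of the chaperone gene Hspa8, was at 0 in both oocyte libraries and at 1410 and 2369 TPM at the 8-cell stage. Gm8203, identical to the histone variant gene H2afz, ranged from 0.188 TPM in one oocyte library to 3964 TPM in one blastocyst library, and its 2 libraries differed several-fold in sperm, oocytes, 4-cell embryos and blastocysts. Gm1821, a 97.7% copy of the ubiquitin gene Ubb, was between 299 and 3439 TPM in all 14 libraries. Each of these 6 copies shared a run of at least 150 bases with its relative, and all but Gm1821 were single-exon transcripts of pseudogenes with no frame break.

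**Figure D2:**
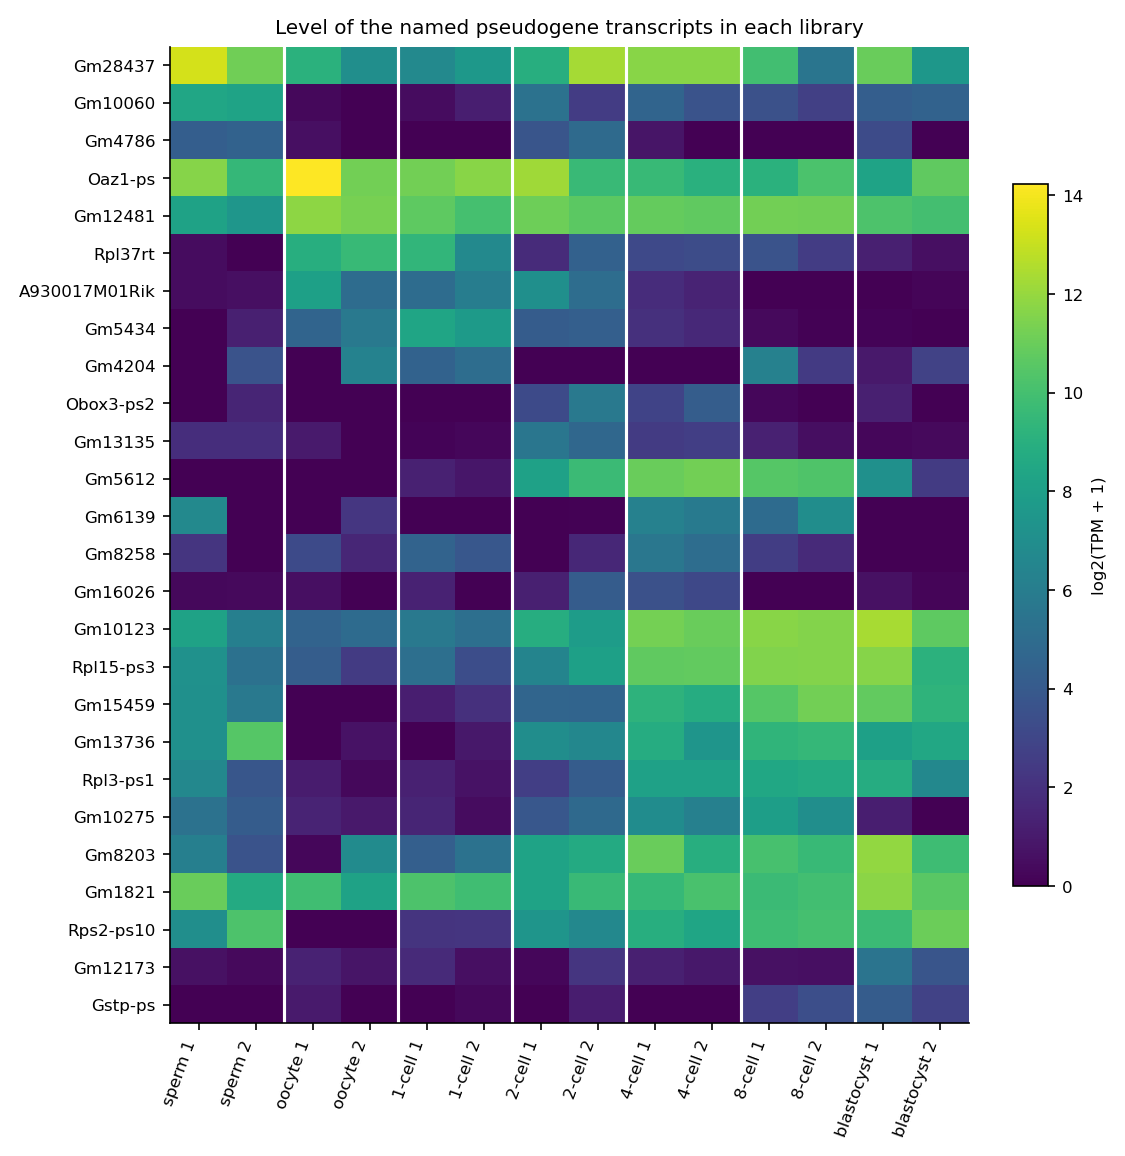
Heat map of log2(TPM + 1) for members named by level or by change (rows) in the 14 short-read libraries (columns, 2 a stage, sperm to blastocyst). Gm5612 is near 0 through the 1-cell stage and high in 2- to 8-cell embryos, and Rpl37rt and Gm5434 are high in oocytes or 1-cell embryos and low from the 4-cell stage on.

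Changes between stages were tested with limma on log2(TPM + 1) over 20250 transcripts, 399 of them members, with at least 1 TPM in at least 2 of the 12 libraries from oocyte to blastocyst. The spread of each transcript was pooled over these 12 libraries, so stages outside a comparison entered its test. A transcript was called at a Benjamini-Hochberg adjusted p under 0.05 over all transcripts tested. Because a member could enter through its high stage alone, the counts below describe the 399 and not all 494 members. Few members were called between oocytes and 1-cell embryos. From oocyte to 1-cell, 1 member was higher (0.251%, against 1.92% of all transcripts tested) and 0 were lower (against 0.084%), while 24 had an unadjusted p under 0.05. The 1 member, which shared no run, was Gm5434, a single-exon copy of the NEDD8-conjugating enzyme gene Ube2f (chr12:36090289-36091827, plus strand; 93.1% identity, longest shared run 107 bases). It measured 22.9 and 52.2 TPM in oocytes and 332 and 215 TPM in 1-cell embryos, with no overlap, a log2 change of 2.91 (SE 0.66, limma adjusted p = 0.0407). The call held in 2 of 10 alternative settings. With quantile normalization 0 members were higher and 1 was lower. The transcripts of Ube2f itself were not called (limma adjusted p of at least 0.532).

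Among consecutive stages, the step into the 2-cell stage had the most calls, although not with stage-weighted spread (89, against 124 from 4-cell to 8-cell) or from the 4 libraries of each comparison alone (95 against 97). From the 1-cell to the 2-cell stage, 154 members were higher (38.6% of the 399, against 22.9% of all transcripts tested) and 13 were lower (3.26%, against 5.11%). All 167 moved the same way in all 4 pairings of the libraries, but they were called from these same libraries, so this adds no support. The median log2 change was 1.57 over members and 0.75 over all transcripts, so part of each rise is common to the whole table. Quantile normalization, which removes such a shift, gave 113 members higher and 48 lower. Here and elsewhere, the share of all transcripts called under that setting is not given. These counts therefore do not show whether members exceed it. Among called rises the smallest was 1.45 and the median 3.80 on the log2 scale. Without 2-cell replicate 1 there were 195 calls, without 2-cell replicate 2 there were 162, and without 1-cell replicate 1 or 2 there were 102 or 89. Among the 148 tested members with no shared run, 52 were higher and 4 lower (median log2 change 1.04), and 28 of 41 sharing a run only with another member were higher (median 3.26).

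The counts by group follow, with no test of the differences between groups. Copies of ribosomal protein genes had 42 higher and 3 lower of 98 tested (median log2 change 2.21). All 4 Obox-related transcripts were higher (median 4.56), as were 5 of 10 ubiquitin-related ones with 1 lower, 2 of 5 related to respiratory complexes, 1 of 4 to heat shock proteins, 1 of 5 to histones and HMG proteins and 1 of 7 to zinc finger genes with 1 lower. Copies of translation factors (0 of 4) and of tubulins and actins (0 of 3) had no calls in either direction. By type, 35 of 61 unprocessed members were higher and 2 lower (median 3.20), against 94 higher and 7 lower of 247 processed ones, 16 and 4 of 50 transcribed processed ones and 8 and 0 of 35 transcribed unprocessed ones. For comparison, 3424 of 15349 coding and 142 of 808 lncRNA transcripts were higher.

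**Figure D3:**
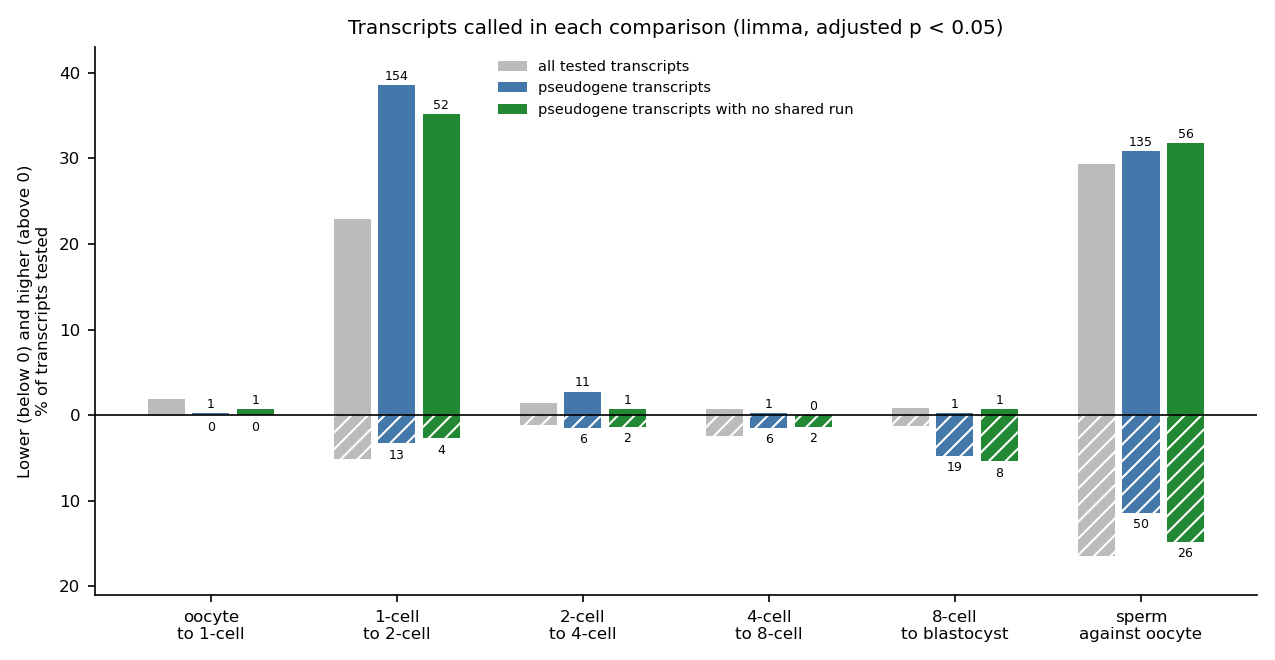
Percent of tested transcripts called higher (above 0) and lower (below 0) by limma in each of the 6 comparisons, for all transcripts, for members and for members with no shared run, with the numbers called printed on the bars. The bar of members is above that of all transcripts for rises from 1-cell to 2-cell (38.6% against 22.9%) and for falls from 8-cell to blastocyst (4.76% against 1.28%).

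Several rises came from clusters of copies, defined as at least 3 pseudogenes of 1 relative with no more than 200 kb from one start to the next. One held copies of Pabpc4, a cytoplasmic poly(A)-binding protein gene (chr11:60629856-60683875, minus strand). Its 4 transcripts came from 3 pseudogenes of 96.1% to 96.4% identity, with a longest run with Pabpc4 of 134 bases. Their pseudogenes shared identical runs of 784 to 1112 bases with that of another member. Short reads within such a run cannot tell these copies apart, so their calls are not independent of each other. The 4 transcripts summed to 0.327 and 0.0622 TPM in 1-cell and 46.0 and 138 TPM in 2-cell embryos. Of the 4, 3 were called higher. The sum then went down to 32.3 and 43.6 TPM at the 4-cell, 13.3 and 14.3 TPM at the 8-cell and 4.49 and 4.68 TPM at the blastocyst stage. Pabpc4 itself was at 126 and 206 TPM at the 1-cell and 58.4 and 54.8 TPM at the 2-cell stage. The copies were thus below the coding gene in both 1-cell libraries and in 2-cell replicate 1, and above it in 2-cell replicate 2.

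The 6 unprocessed pseudogenes related to Tmem92 (7 multi-exon transcripts, chr11:94755136-94865259, 83.1% to 92.4% identity) summed to 48.9 and 113 TPM at the 1-cell and 98.2 and 586 TPM at the 2-cell stage, and 5 of 7 were called higher. The most strongly changed of them was Gm11544, from 0.552 and 0.511 to 36.5 and 149 TPM (log2 change 5.61, SE 0.77, limma adjusted p = 0.000763), a gene chosen after its values were seen. The 4 transcripts of 3 pseudogenes on chromosome 1 related to AC153137.1 (chr1:31264832-31288052) went from 2.57 and 2.36 to 89.5 and 486 TPM, and all 4 were called higher. The coding relatives of these clusters were also higher at this step. Tmem92 went from 0.391 and 0 to 13.2 and 75.5 TPM, and AC153137.1 from 0 in both libraries to 1.44 and 50.7 TPM. In both clusters replicate 2 was the higher of the 2-cell libraries, as it was for the 2-cell markers, although by a smaller factor. The 3 Elof1-related copies on chromosome 18 were also all called higher (median log2 change 4.42), and 2 of them shared a run of at least 150 bases with another member. Elof1 itself measured 331 and 60.6 TPM at the 1-cell and 104 and 167 TPM at the 2-cell stage, with overlap.

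**Figure D4:**
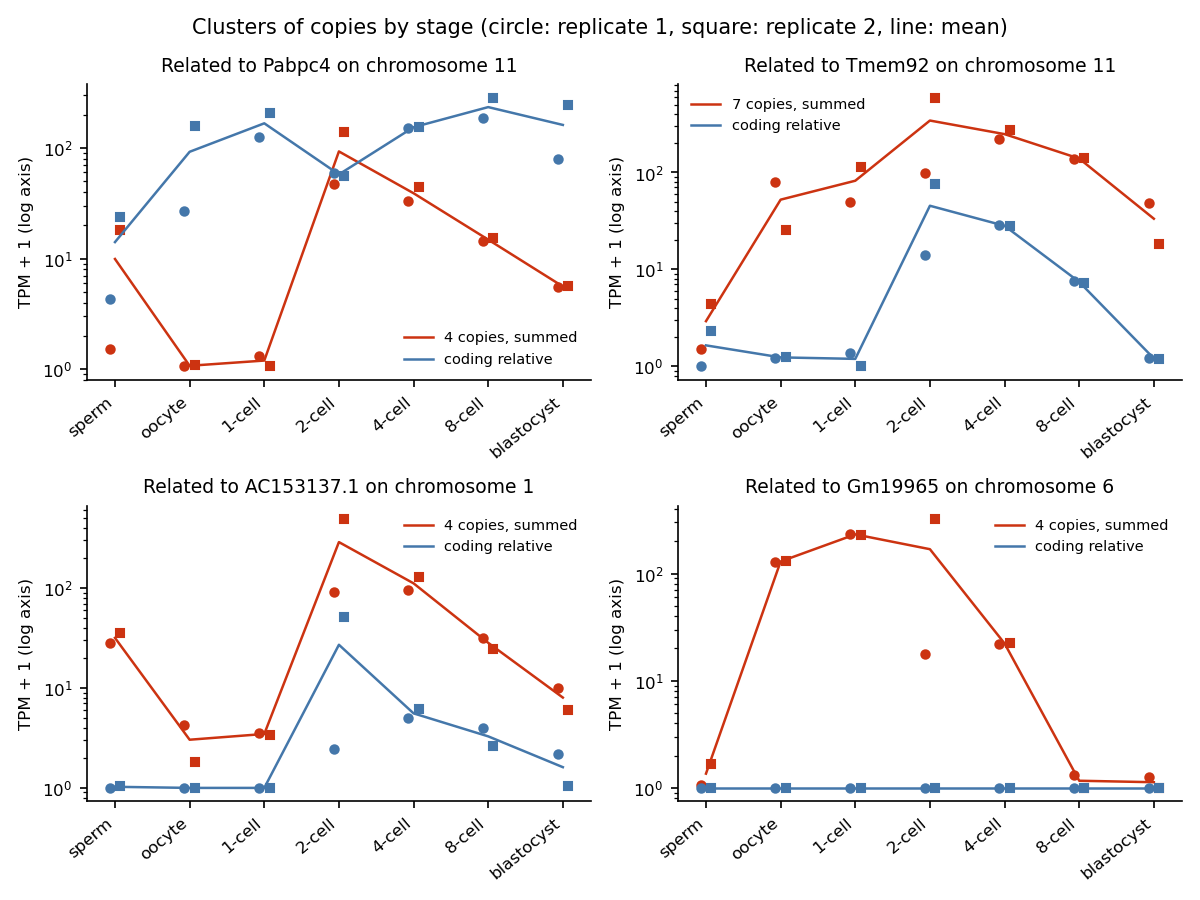
Summed TPM + 1 on a log axis by stage for 4 clusters of copies and their coding relatives (red copies, blue relative; circle replicate 1, square replicate 2, line through the means). The Pabpc4-related copies go from 0.327 and 0.0622 TPM in 1-cell to 46.0 and 138 TPM in 2-cell embryos, and the Gm19965-related ones are highest in oocytes, 1-cell embryos and 1 of the 2-cell libraries.

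Obox3 is a homeobox gene of a family expressed around the activation of the embryonic genome. Its 3 pseudogenes with transcripts (98.2% to 98.8% identity) were all on chromosome 7. Obox3-ps2 had 2 transcripts: the 5-exon transcript TCONS_00018595 was at 0 in oocytes and 1-cell embryos, at 8.24 and 52.4 TPM in 2-cell, 6.15 and 17.0 TPM in 4-cell and 0.197 and 0 TPM in 8-cell embryos. It was called in both directions, by 4.47 into the 2-cell stage (SE 0.79, limma adjusted p = 0.00193) and by -3.37 into the 8-cell stage (SE 0.79, limma adjusted p = 0.0389). Its values at the 2- and 8-cell stages did not overlap those of the stage before. Obox3-ps5 had the highest level of the 3, with 17.6 and 165 TPM in 2-cell embryos.

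Gm5612, in its transcript TCONS_00020570, had the largest called rise among members that shared no run of at least 150 bases with a relative or another member. It is a 2-exon copy of Map1lc3b, the gene of an autophagosome protein (chr9:18425348-18428202, plus strand; 96.5% identity, longest shared run 61 bases), with no break of the reading frame. Of the bases of this transcript, 44.1% lay in pseudogene exons. It was listed at 0 in sperm and oocytes, at 1.45 and 0.785 TPM in 1-cell, 285 and 823 TPM in 2-cell, 2000 and 2388 TPM in 4-cell and 1425 and 1252 TPM in 8-cell embryos, and at 140 and 4.64 TPM in blastocysts. The rise into the 2-cell stage was 7.86 on the log2 scale (SE 1.18, limma adjusted p = 0.000999) and held in 10 of 10 alternatives. The fall into the blastocyst was -5.57 (SE 1.18, limma adjusted p = 0.0308) and held in 3 of 10. Map1lc3b rose at the same step, from 59.0 and 23.8 to 353 and 1063 TPM, with all 3 of its transcripts called higher (limma adjusted p = 0.009, 0.0319 and 0.0146). It was already present in oocytes (15.2 and 32.2 TPM) and remained at 3621 and 820 TPM in blastocysts.

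A few copies went the other way and were lower in 2-cell than in 1-cell embryos. Rpl37rt, a 2-exon transcript with a 99.7% copy of Rpl37 (chr5:115103190-115110295, minus strand), measured 489 and 771 TPM in oocytes, 651 and 104 TPM in 1-cell and 2.34 and 20.4 TPM in 2-cell embryos, and at most 11.6 TPM later. The log2 change into the 2-cell stage was -4.95 (SE 1.01, limma adjusted p = 0.00413), with no overlap, and the call held in 10 of 10 alternatives. Rpl37, a protein of the large ribosomal subunit, moved in the opposite direction, from 55.5 and 5.70 to 184 and 546 TPM, and was at 16.2 and 17.5 TPM in oocytes. In oocytes the copy was thus the higher of the pair in both libraries. The match to Rpl37 covers 50.4% of the annotated pseudogene, with an identical run of 256 bases. Reads within that run could come from either, and their part in these levels was not tested. One of the 3 Rpl37 transcripts was called higher (log2 change 4.04, SE 1.08, limma adjusted p = 0.0161).

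Gm5434, higher in 1-cell embryos than in oocytes, fell from 332 and 215 to 16.6 and 18.6 TPM (log2 change -3.86, SE 0.66, limma adjusted p = 0.00158) and was at most 0.279 TPM from the 8-cell stage on, while Ube2f kept 20.2 to 84.8 TPM in all libraries from 1-cell to blastocyst. Gm4204 and Gm8258, copies of Nap1l1 and Txlng, were also called lower, from 21.2 and 33.0 to 0 TPM in both libraries and from 22.4 and 13.7 to 0 and 2.04 TPM, and the calls held in 2 and 7 of 10 alternatives.

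**Figure D5:**
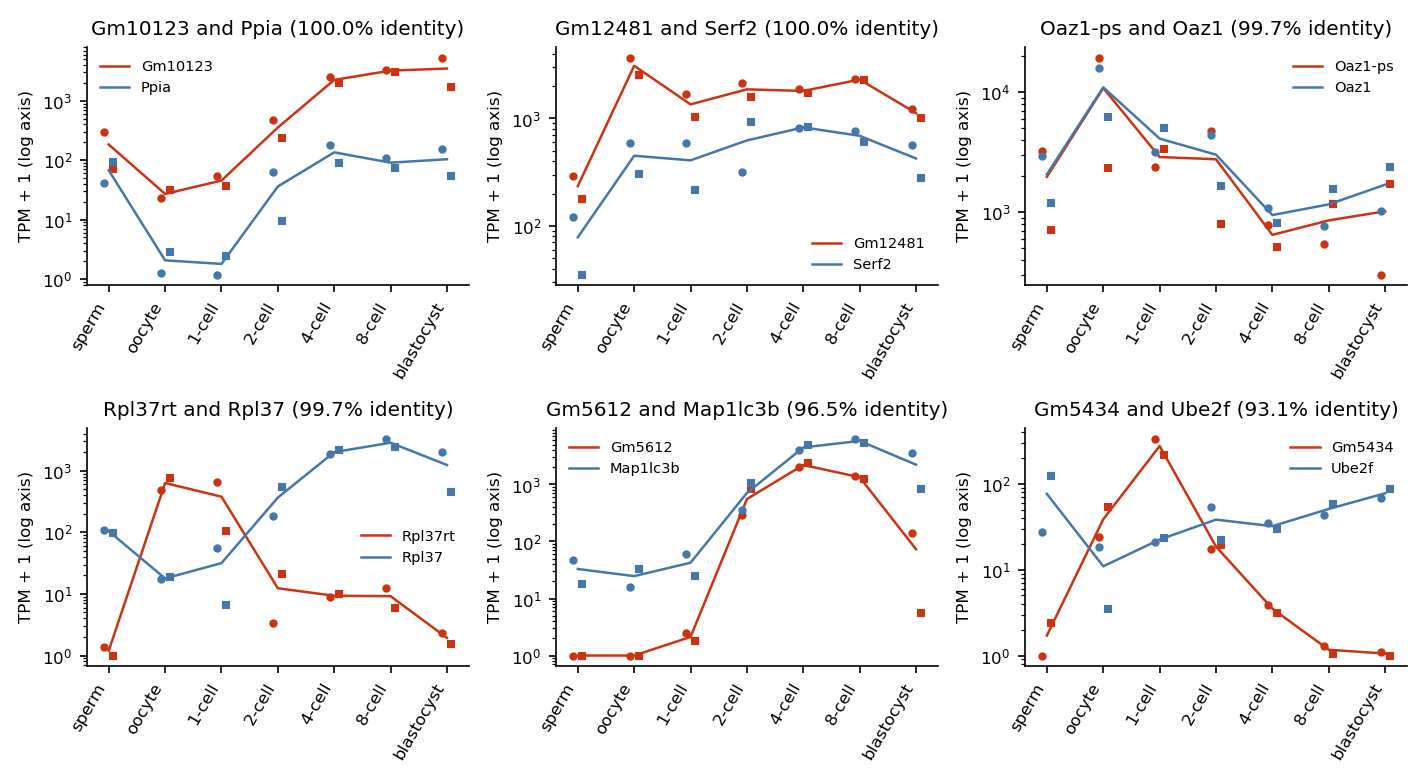
TPM + 1 on a log axis by stage for 6 members and their coding relatives, each with the identity printed: Gm10123 and Ppia, Gm12481 and Serf2, Oaz1-ps and Oaz1, Rpl37rt and Rpl37, Gm5612 and Map1lc3b, Gm5434 and Ube2f. Points are the libraries (circle replicate 1, square replicate 2) and lines join the means. Gm5612 falls below 150 TPM in blastocysts while Map1lc3b stays at 820 TPM or more, and Rpl37rt and Rpl37 cross between the oocyte and the 2-cell stage.

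Copies identical or nearly identical to their relative differed in how the signal was split between both. Ppia had 108 and 72.1 TPM at the 8-cell stage against 3347 and 3102 TPM of Gm10123, and it was below Gm10123 in 13 of the 14 libraries. Serf2 was below Gm12481 in all 14 libraries. Oaz1 and Oaz1-ps were of the same order throughout. Gm10275 and Gm8203, at 100% identity as well, were mostly the lower of the pair, with 24.9% of the summed TPM of Gm10275 and Rpl12 and 28.1% of that of Gm8203 and H2afz in 8-cell embryos. Gm15459 held 21.6% and Rpl3-ps1 46.0% of their pairs at that stage. Reads that fit both sequences can be assigned to either, and their part in these splits was not tested. Over the 404 members whose relative had its own catalogue transcripts, the member was above the relative in 11.6% (1-cell) to 17.3% (2-cell) of pairs with at least 1 TPM in either.

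From the 2-cell to the 4-cell stage, 11 members were called higher (2.76%, against 1.46% of all transcripts tested) and 6 lower (1.5%, against 1.17%). This count depended on single libraries: it was 76 without 2-cell replicate 1, 55 without 2-cell replicate 2 and 0 without either 4-cell library. Members related to ribosomal proteins had 6 higher and 1 lower of 98 (median log2 change 1.45), and members with no shared run had 1 higher and 2 lower of 148. Quantile normalization gave 35 higher and 10 lower members. The largest rises were Gm6139, a 98.9% copy of Rps2, from near 0 and 0.0562 TPM to 76.6 and 57.1 TPM (log2 change 6.03, SE 0.83, limma adjusted p = 0.0125), Rpl3-ps1, a 99.8% copy of Rpl3 on the X chromosome, from 5.24 and 16.9 to 283 and 284 TPM, and Gm8258, from 0 and 2.04 to 49.3 and 32.9 TPM. The largest fall was A930017M01Rik, a 3-exon transcript with no coding relative, which went from 274 and 31.2 TPM in oocytes and 137 and 33.6 TPM in 2-cell embryos to 2.47 and 1.70 TPM (log2 change -4.50, SE 0.97, limma adjusted p = 0.038). Gm4786, a copy of Rpl7a, and Gm13135, a copy of the chromatin remodeller gene Smarca5, fell from 12.3 and 29.8 to 0.729 and 0 TPM and from 47.1 and 25.9 to 4.63 and 5.12 TPM. Gm13135 had been at 0.115 and 0.205 TPM in 1-cell embryos, so that its 2-cell values stood above both neighbours without overlap.

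From the 4-cell to the 8-cell stage, 1 member was called higher (0.251%, against 0.681%) and 6 lower (1.5%, against 2.44%), and leaving out any 1 of the 4 libraries brought the count to 0. Of the 148 members with no shared run, 0 were higher and 2 lower. Quantile normalization gave 11 higher and 5 lower members. The rise was Gstp-ps, a copy of the glutathione transferase gene Gstp2, listed at 0 in both 4-cell libraries and at 5.21 and 9.58 TPM in 8-cell embryos (log2 change 3.02, SE 0.64, limma adjusted p = 0.0227). Beside Obox3-ps2, the largest falls were in Gm16026, related to Sp110, and in Gm8258. The 9-exon transcript TCONS_00000302 of Gm16026 went from 10.4 and 7.49 TPM to 0 in both libraries. Long reads matched other transcripts of Gm16026, TCONS_00000297 among them, in 8-cell embryos, so the fall is that of 1 transcript and not of the pseudogene. Gm8258 fell from 49.3 and 32.9 to 4.97 and 2.30 TPM. Gm8258 was thus called in 3 consecutive comparisons, lower, higher and lower. Its catalogue transcript is only 161 bases long, little more than a read of 150 bases, with 100% of its bases in the pseudogene. How far this length affects its TPM was not tested. The pseudogene of Gm8258 shares an identical run of 258 bases with Txlng. Txlng itself measured 95.9 and 46.7 TPM in 1-cell and 14.4 and 33.1 TPM in 2-cell embryos. At the 4-cell stage it was at 115 and 100 TPM, and at the 8-cell stage at 43.4 and 23.8 TPM. The part of Txlng reads in the values of Gm8258 was not tested.

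From the 8-cell stage to the blastocyst, 19 members were called lower (4.76%, against 1.28%) and 1 higher (0.251%, against 0.83%). The call count was 1 without 8-cell replicate 1, 2 without 8-cell replicate 2, 25 without blastocyst replicate 1 and 5 without blastocyst replicate 2. Of the 19, 11 were related to ribosomal proteins (of 98 tested). Multi-exon members made up 13 of the 19 (of 172 tested), and 8 were members with no shared run (of 148). Gm10275, identical to Rpl12, fell from 251 and 128 to 1.27 and 0 TPM (log2 change -6.90, SE 0.75, limma adjusted p = 0.00209), in 9 of 10 alternatives. Gm6139 fell from 30.5 and 127 TPM to under 0.01 TPM. The rise was Gm12173, an 8-exon transcript with 14.5% of its bases in the pseudogene, from 0.534 and 0.516 to 42.8 and 12.5 TPM.

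Sperm and oocytes were compared in a separate fit of all 14 libraries, with 438 members among 21568 tested transcripts. Strain and cell type cannot be told apart here, since sperm was labelled DBA/2J and oocytes C57/BL6J. In sperm 135 members were higher (30.8%, against 29.3% of all transcripts) and 50 lower (11.4%, against 16.5%), with 56 and 26 among the 176 tested members with no shared run. Quantile normalization gave 111 higher and 76 lower. Transcripts of epididymis and blood stood in the sperm libraries at 4005 and 4890 TPM in sum over 4 of 6 markers with a transcript, among them 2006 and 335 TPM of Crisp1 and 1803 and 4384 TPM of Hba-a1. In oocytes that sum was 0.0383 to 1.44 TPM. It was 20.3 to 370 TPM in 2-cell and 96.1 to 145 TPM in 4-cell embryos, nearly all of it Hba-a1. Hba-a1 was thus not confined to the sperm libraries. The part of epididymis and blood cells in the sperm values was not tested. The largest differences towards sperm were Rps2-ps10, a 99.4% copy of Rps2 (128 and 1216 TPM against 0 in both oocyte libraries), Gm13736, identical to Srp9 of the signal recognition particle (138 and 1434 against 0 and 0.640 TPM), and Gm10060 (342 and 302 against 0.231 and 0.0380 TPM), which has only 2.62% of its bases in the pseudogene. Towards oocytes, Rpl37rt differed most (log2 difference -9.03, SE 0.99, limma adjusted p = 1.21e-05).

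A cluster related to Gm19965 on chromosome 6 (chr6:130580820-130987224; 4 pseudogenes with 1 transcript each, 79.4% to 83.6% identity) was lower in sperm in all 4 transcripts. It summed to 128 and 129 TPM in oocytes and 233 and 229 TPM in 1-cell embryos, then to 16.6 and 319 TPM in the 2-cell libraries, 21.1 and 21.4 TPM at the 4-cell stage and at most 0.333 TPM later. The 2-cell library with the high sum is the one in which the oocyte markers were high. Long reads matched all 4 transcripts in oocytes and none in the other 6 stages.

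Polymorphic pseudogenes are inactive in the reference strain C57BL/6J and active in others. All 4 unitary and 4 of 6 polymorphic transcripts were called higher in sperm than in oocytes, against 29.3% of all transcripts tested. Both groups are small, and 1700031M16Rik and H2-Ea-ps each gave more than a single transcript. H2-Ea-ps, in C57BL/6 the inactive form of the alpha chain gene of the class II molecule I-E, measured 506 and 45.6 TPM in its 4-exon transcript and 245 and 8.84 TPM in its single-exon transcript in sperm, and at most 0.651 TPM in the other 12 libraries. The class II gene H2-Aa stood beside it at 622 and 80.6 TPM in sperm, and both are genes of antigen-presenting cells. Clec7a, a receptor of myeloid cells, measured 10.8 and 6.64 TPM in sperm and at most 2.02 TPM elsewhere. Among the same libraries Ptprc, the leukocyte gene of CD45, was at 35.2 and 7.07 TPM.

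The transcripts 1700086L19Rik and 1700031M16Rik were sperm members too. 1700086L19Rik measured 56.6 and 477 TPM in sperm, against 0.463 and 33.9 TPM in 2-cell embryos and under 1 TPM elsewhere, while 1700031M16Rik measured 88.9 and 16.7 TPM (TCONS_00007104) and 34.4 and 6.63 TPM (TCONS_00007105). Abhd11os, at 6.78 and 1.29 TPM in sperm, went from 0 and 0.153 TPM in 2-cell to 10.9 and 16.9 TPM in 4-cell embryos (log2 change 3.77, SE 0.59, limma adjusted p = 0.0171) and 44.6 and 33.3 TPM in 8-cell embryos. Slc22a13b-ps, a 7-exon copy of a solute carrier gene, was at 19.3 and 18.3 TPM in 8-cell embryos and 3.75 and 0.436 TPM in blastocysts (log2 change -2.92, SE 0.67, limma adjusted p = 0.0454). Oas1b, an interferon-induced gene that is truncated in laboratory strains, was highest at the 1-cell stage with 17.1 and 5.60 TPM, and Atp10d, a lipid flippase gene, had its highest mean in sperm (13.8 and 7.72 TPM) and reached 12.4 and 5.78 TPM at the 8-cell stage.

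Kdm4dl is given because the study treats it as a former pseudogene. It was a member under vM21 (2 exons, chr9:14449858-14455505, minus strand) and is 90.9% identical to the histone demethylase gene Kdm4d, with a longest shared run of 167 bases. It measured 0.450 and 0 TPM in 1-cell, 3.56 and 37.2 TPM in 2-cell, 8.96 and 9.95 TPM in 4-cell and 2.01 and 2.48 TPM in 8-cell embryos, against 0.0220 and 0 TPM in oocytes. The rise into the 2-cell stage was 3.45 on the log2 scale (SE 0.82, limma adjusted p = 0.00894), without overlap, and held in 8 of 10 alternatives. Long reads matched it in 2-cell embryos only.

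Long reads cover a whole cDNA and thus tell copies apart better than short ones. Each stage had 1 pool, so these counts have no replicate. The catalogue was merged from the long-read transcripts of these same pools, so every member had to match in at least 1 of them. The pools and the short-read libraries came from the same amplified cDNA, so a match is not separate support for a short-read level. Long reads matched 132 members in sperm, 80 in oocytes, 82, 128, 130 and 134 in 1-, 2-, 4- and 8-cell embryos and 131 in blastocysts. In 1 stage alone 318 members were matched, and in all 7 stages 4 were. Matched members were the more abundant ones in short reads, with a median of 31.9 TPM against 3.48 TPM at the 2-cell stage and 7.69 against 0.165 TPM in oocytes. Rpl37rt was matched in oocytes and 1-cell embryos only, Gm5434 in these and in 2-cell embryos, and Gm5612 from the 2-cell stage to the blastocyst.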

How the data were processed

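The authors sequenced amplified cDNA of pooled cells on short-read and PacBio instruments, aligned long reads to mm10 with GMAP, merged transcripts with Cuffmerge and deposited TPM per library for the merged transcripts, computed with Salmon. The submitters' processing notes also name GSNAP, STAR and Cufflinks. Members and lists were chosen with earlier results of these data known. Members were found with GENCODE vM21 (GRCm38), whereas the methods name vM20. Named members were the 10 highest by stage mean, the 3 highest of each stage, the 3 largest rises and falls of each comparison, all unitary and polymorphic pseudogenes, Kdm4dl, and their relatives; some copies that the rule names are not reported here. Relatives were searched with blastn 2.17.0 (E at most 1e-10, plus strand, coverage of at least 50%) from GENCODE transcript sequences of the pseudogenes, not from spliced members as planned, since no genome was used. Tests used limma 3.58.1 in R 4.3.3 (lmFit, contrasts.fit, eBayes with trend; pseudocount 1), tested on simulated data. Replicate numbers did not pair libraries. The remaining steps used Python 3.11.15 with pandas 2.3.3, scipy 1.17.1, numpy 2.4.6 and matplotlib 3.10.9. Alternatives were a pseudocount of 0.1, no filter, quantile normalization, a replicate block, stage-weighted spread, the 4 libraries of a comparison alone, each library left out, and subsets of members.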

Additional observations from a re-analysis of the deposited data

How the results depend on the processing

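Of 128 alternative values of stages and groups, 77 stayed within the spread or within 1.5 times the main count, and 51 moved. The causes were not tested. Of 2338 alternative values for named members, 2089 kept their call, 188 lost it, 61 gained one and 0 reversed. From oocyte to 1-cell (1 call), the counts were 3 with a pseudocount of 0.1, 0 with the replicate block, 5 with stage-weighted spread and 0 to 0 leaving out each library. From 1-cell to 2-cell (167), they were 89 with stage-weighted spread, 95 from the 4 libraries alone and 89 to 195 leaving out each library. From 2-cell to 4-cell (17), they were 5 with a pseudocount of 0.1, 45 with quantile normalization, 6 with the block, 0 with stage-weighted spread, 0 from the 4 libraries alone and 0 to 76 leaving out each library. From 4-cell to 8-cell (7), they were 4 without a filter, 16 with quantile normalization, 4 with the block, 124 with stage-weighted spread, 97 from the 4 libraries alone and 0 to 0 leaving out each library. From 8-cell to blastocyst (20), they were 34 with stage-weighted spread, 1 from the 4 libraries alone and 1 to 25 leaving out each library. Counting only members with no shared run, a setting chosen after seeing the data, gave 56, 3, 2, 9 and, for sperm against oocyte (185), 82. Among the members called, the share that was higher moved by over 10 points with quantile normalization: 113 higher and 48 lower into the 2-cell stage, 35 and 10 into the 4-cell stage, 11 and 5 into the 8-cell stage, and 111 and 76 for sperm. The replicate block gave 151 calls from 1-cell to 2-cell, 15 from 8-cell to blastocyst and 177 for sperm. The replicate numbers are not paired in this sense, since the correlation of deviations over 15 pairs of stages ran from -0.49 to 0.41 and passed 0.1 in 3. At a threshold of 10 TPM, 83 members passed in sperm, 46 in oocytes, 58, 121, 174 and 140 in 1-, 2-, 4- and 8-cell embryos and 100 in blastocysts, and 186 passed in oocytes by a stage mean of 1 TPM. With members that have 50% or more of their bases in pseudogene exons, the mean sums were 9167, 19236, 36593 and 44194 TPM in 1-, 2-, 4- and 8-cell embryos. Amplified, pooled cDNA, 2 libraries a stage and reads that fit several copies limit what these levels can show.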

Other observations

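Zscan4a, typed as an unprocessed pseudogene in the C57BL/6J annotation and chosen after its values were seen, belongs to a zinc finger family known from the 2-cell stage. It measured 0 and 0.0479 TPM in 1-cell, 4.64 and 87.9 TPM in 2-cell and 4.30 and 3.16 TPM in 4-cell embryos (log2 change 4.45 into the 2-cell stage, SE 0.93, limma adjusted p = 0.00462). Of members found in sperm, BC106175, related to Prr30 at 81.4% identity, measured 82.7 and 57.5 TPM in sperm and at most 0.0562 TPM in the other 12 libraries, and Ppp4r1l-ps, with 6 exons in both of its transcripts, measured 41.2 and 96.5 TPM (TCONS_00012505) and 28.9 and 111 TPM (TCONS_00012506) in sperm and at most 1.08 TPM elsewhere. Both were chosen after their values were seen. In oocytes, 4 transcripts of Fbxw23, related to Fbxw16 at 93.9% identity, stood at 20.6 and 5.97 TPM in the most abundant (TCONS_00021701), which measured 31.5 and 23.3 TPM in 1-cell, 2.80 and 39.4 TPM in 2-cell and 2.74 and 3.94 TPM in 4-cell embryos and 0 later.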
